A study of Homo sapiens with 2 samples.

Results

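PLAU, the gene of the protease urokinase, and PLAT, the gene of tissue plasminogen activator, were both well expressed in doxorubicin-resistant SUM159 cells. In counts per 1000000 of the library total (CPM), PLAU stood at 449 in replicate 1 and 445 in replicate 2, and PLAT had 326 and 267 CPM. The urokinase receptor gene PLAUR was also expressed, with 60.5 and 44.5 CPM, whereas PLG, the gene of plasminogen itself, had 1 count and 0 counts. The genes were chosen by symbol alone. They comprise every symbol in both count files that is written SERPIN, a clade letter from A to I and a number, which gave 35 serpins, together with PLAU, PLAUR, PLAT, PLG, F3, TFPI and TFPI2. This makes 42 of the 23368 gene symbols. AGT, a member of the serpin family whose symbol this choice passes over, had 858 and 268 counts and was looked up after the values were seen.

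The samples were 2 bulk RNA-seq libraries of a single condition, doxorubicin-resistant SUM159 cells grown attached as a monolayer, with genotype given as Wt. Resistance was raised with escalating doses, by short exposure to the drug and then recovery in medium without it. SUM159 is a triple-negative breast cancer cell line, and doxorubicin is a topoisomerase II poison. Polyadenylated RNA was made into directional libraries, and nothing states whether the libraries came from separate cultures or whether the resistant population was a single clone, so that any spread between them may be technical. Replicate 1 holds 23044084 counts over all genes and replicate 2 holds 17985508. A single count is worth 0.0434 and 0.0556 CPM, and a count of 0, read as up to 3 counts, allows 0.13 and 0.167 CPM, which covers counting error only. Treatment-naïve cells were not analysed here, so that levels are given and no change with resistance was tested. In bulk RNA, fewer cells that express a gene and less RNA per cell cannot be told apart.

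Urokinase and tissue plasminogen activator cut plasminogen to plasmin, a broad protease that dissolves fibrin and degrades matrix, and the urokinase receptor holds this reaction at the cell surface. Most serpins are suicide inhibitors: the target protease cuts an exposed loop near the carboxyl end of the serpin, the reactive-centre loop, and is trapped by the change of shape that follows. Some members have lost inhibition and serve as hormone carriers or chaperones, and clade B members act largely inside cells. In breast cancer, high urokinase in the tumour is known as a marker of poor outcome.

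The reactive-centre loop is the part by which serpins differ in their targets, and it lies just before the serpin signature, a conserved motif of the family that PROSITE lists. A search of the coding sequences of canonical GENCODE transcripts on GRCh37, translated in frame, found the signature in 31 of the 34 serpins with an annotated coding sequence, and in 39 of all 18685 coding sequences searched, or 0.209%. A match describes these letters and not activity, and SERPINA10, SERPINA11 and SERPINA12 had no match. For the serpins on which the results turn, the 28 codons before the signature are printed in lower case and the 11 codons of the signature in capitals, each as 117 bases of the coding strand, 5′ to 3′.
SERPINE2: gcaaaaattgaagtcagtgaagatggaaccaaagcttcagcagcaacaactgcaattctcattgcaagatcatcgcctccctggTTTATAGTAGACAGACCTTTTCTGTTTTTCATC
SERPINB6: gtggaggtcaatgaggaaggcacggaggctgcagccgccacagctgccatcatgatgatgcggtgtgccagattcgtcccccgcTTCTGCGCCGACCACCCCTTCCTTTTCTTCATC
SERPINB1: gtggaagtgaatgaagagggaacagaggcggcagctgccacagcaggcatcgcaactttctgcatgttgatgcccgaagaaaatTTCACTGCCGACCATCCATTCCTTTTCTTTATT
SERPINB8: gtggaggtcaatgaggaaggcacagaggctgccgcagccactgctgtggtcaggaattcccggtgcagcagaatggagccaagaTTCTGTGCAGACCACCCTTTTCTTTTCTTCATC
SERPINH1: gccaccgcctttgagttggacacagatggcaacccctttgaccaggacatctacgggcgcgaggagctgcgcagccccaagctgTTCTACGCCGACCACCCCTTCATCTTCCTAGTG
These stretches begin at codon 342 of SERPINE2, 321 of SERPINB6, 324 of SERPINB1, 319 of SERPINB8 and 354 of SERPINH1, which encodes a collagen chaperone and not an inhibitor.

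Of the 42 genes, 18 averaged 20 counts or more, the minimum that the methods of the study set for bulk RNA-seq, against 52.8% of all symbols. Among the serpins 12 of 35 did. No count in either library was found for 13 of the 42, against 28.1% of all symbols, and 20 of the 42 had at most 3 counts in each library. The median over all 42 was 0.200 CPM, against 1.89 CPM over all symbols. Together the genes took 0.280% of the counts of replicate 1 (95% Clopper-Pearson interval 0.278% to 0.282%) and 0.267% of those of replicate 2 (0.265% to 0.269%).

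**Figure D1:**
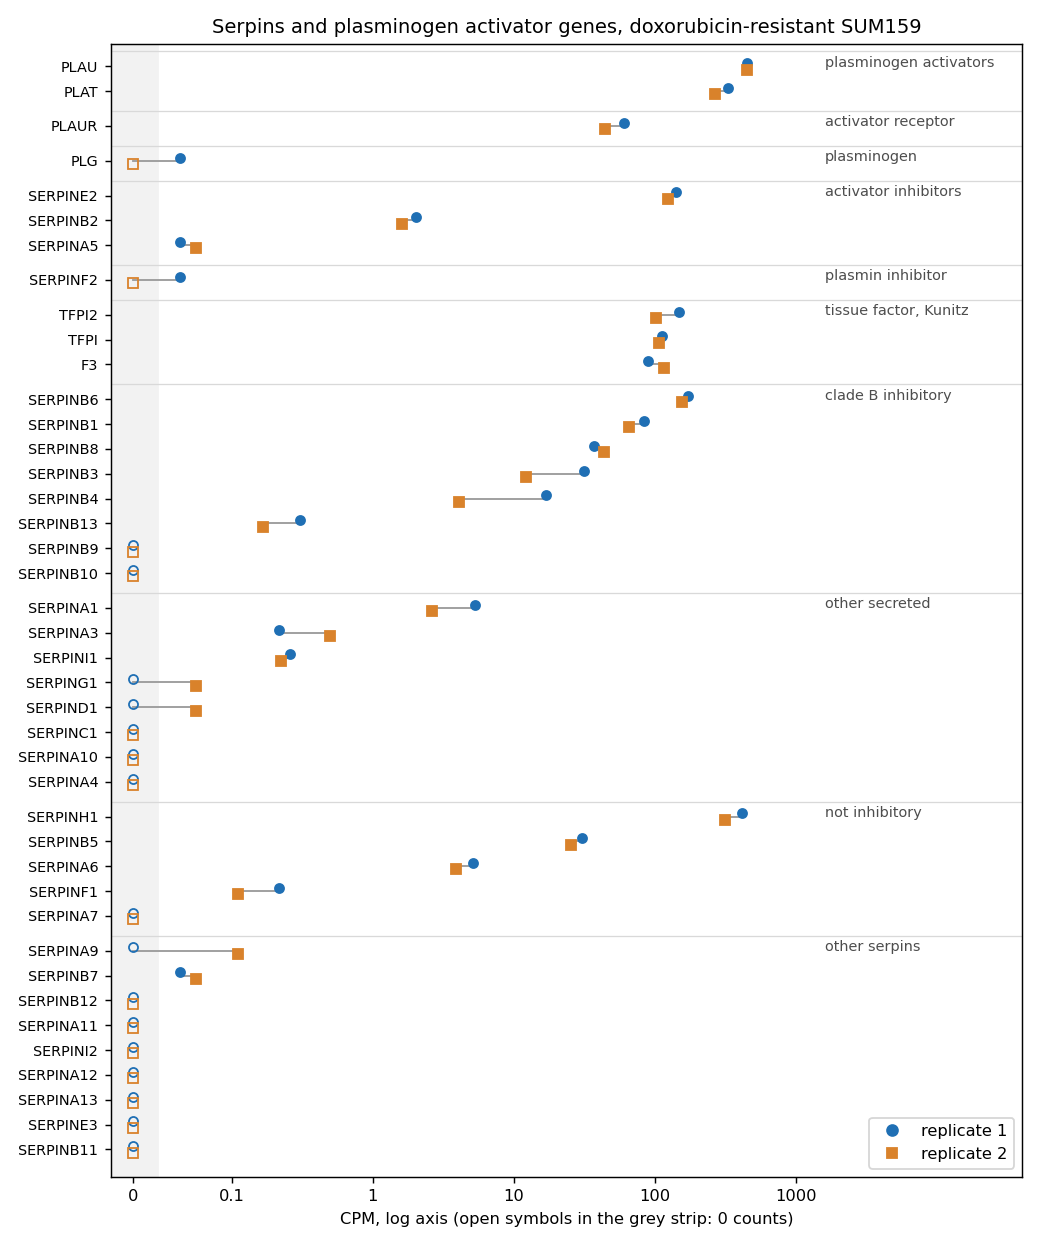
CPM on a log axis of 41 genes in the 2 doxorubicin-resistant libraries, grouped by role; circles are replicate 1, squares replicate 2, and open symbols in the grey strip have 0 counts. PLAU lies at 449 and 445 CPM and SERPINH1 at 416 and 315 CPM, the libraries lie far apart for SERPINB4, and 13 genes have no count in either library.

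Both plasminogen activators were well expressed in the resistant cells. PLAU (chr10:75668935-75677254 on GRCh37, as for all positions here) was covered by 10355 and 8009 counts, or 447 ± 2.87 CPM (SD, n = 2), which placed it at rank 289 of all symbols. PLAU was not called different between the libraries (adjusted p = 0.640, exact binomial test of edgeR). That test sets these libraries, and not conditions, against each other. It allows for counting error only, so that its p-values leave out any wider spread between libraries. Over the tested genes that wider spread was 22.3%, as a common coefficient of variation. PLAU shares 915 bases, 31.0% of its exonic length, with C10orf55 on the opposite strand, which had 103 and 84 counts, and since the strand setting was not stated, reads there cannot be told apart. PLAT (chr8:42032236-42065227), the gene of tissue plasminogen activator, was covered by 7516 and 4805 counts, or 326 and 267 CPM. Replicate 1 held more of it (exact binomial test of edgeR, log2 difference −0.29, replicate 2 over replicate 1, adjusted p = 2.88e-26).

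PLAUR and PLG stood below the activators, PLAUR also per length as given further on. PLAUR (chr19:44150247-44174699) was covered by 1395 and 801 counts, or 60.5 and 44.5 CPM, and was higher in replicate 1 (log2 difference −0.44, adjusted p = 1.26e-11 in the exact binomial test of edgeR). Of the 2 trends with transcript length described further on, that on canonical length removed this call (log2 difference −0.12, adjusted p = 0.127 in the exact binomial test), whereas that on the union of exons kept it (−0.40, adjusted p = 1.61e-09). PLG had 1 count and 0 counts and SERPINF2, the gene of the plasmin inhibitor α2-antiplasmin, likewise had 1 and 0, both below the 3 counts that an observed 0 allows. Both are genes of the liver, whose markers ALB, FGB and TTR had 0 counts in each library and APOA1 1 and 0. Whether this bears on the levels of PLG and SERPINF2 was not tested.

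Among inhibitors of the activators, SERPINE2 was clearly expressed, SERPINB2 weakly, and SERPINA5 was close to 0. SERPINE2 (chr2:224839762-224904035), the gene of protease nexin 1, which inhibits thrombin and urokinase, was covered by 3251 and 2220 counts, or 132 ± 12.5 CPM (SD, n = 2), and was higher in replicate 1 (log2 difference −0.19, adjusted p = 3.66e-06 in the exact binomial test of edgeR). SERPINB2, the gene of plasminogen activator inhibitor 2 (PAI-2), had only 47 and 29 counts, 2.04 and 1.61 CPM, and was not called (adjusted p = 0.451, exact binomial test of edgeR). Of the annotated 100-base windows of its transcript 24.9% are also part of an unnamed gene of the annotation, and whether the annotation of the authors held that gene is not given in the sources used here. SERPINA5, the gene of the protein C inhibitor, had 1 count in each library.

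Longer transcripts give more reads, so that levels of different genes were compared as transcripts per 1000000 (TPM), in which counts are divided by a length and scaled to the same sum in each library. The length was the union of all annotated exons or, as an alternative, that of the canonical transcript. These lengths differ widely for some genes, with 8957 and 2226 bases for SERPINE2 and 7770 and 3062 for PLAT. SERPINE2 stood at 64.8 and 64.0 TPM with the union and at 134 and 137 TPM with the canonical transcript, below PLAT in both libraries on either scale.

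**Figure D2:**
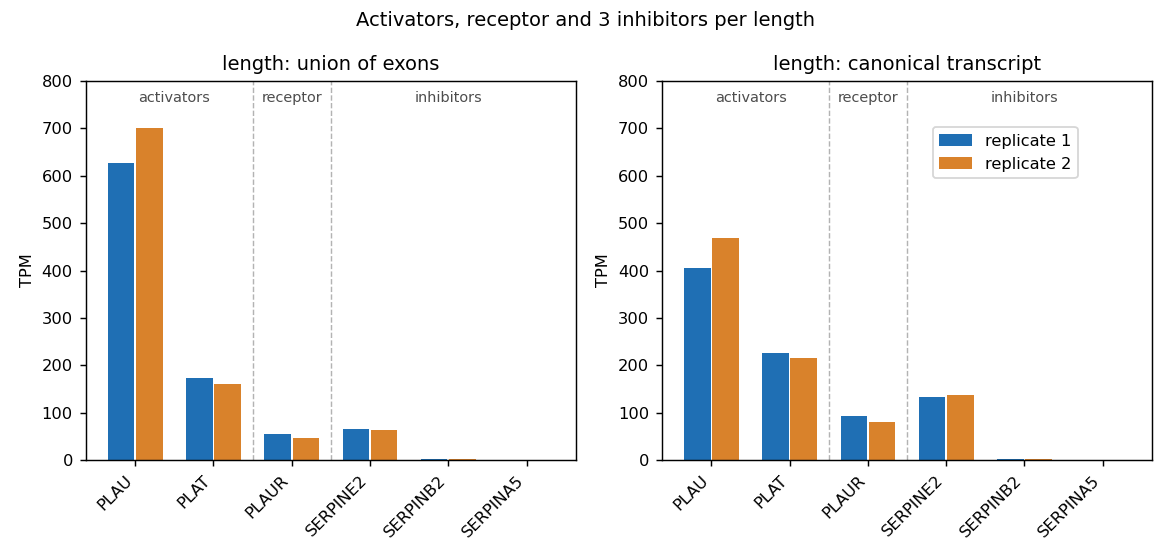
TPM of the 2 activators, the receptor and 3 inhibitors in replicate 1 (blue) and replicate 2 (orange), with the union of exons as length on the left and the canonical transcript on the right. PLAU lies at 627 and 701 TPM on the left and at 406 and 470 TPM on the right, above PLAT and PLAUR in each library on both scales.

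The receptor was much lower than its ligand in both libraries. Of the counts of PLAU and PLAUR together, PLAU held 88.1% in replicate 1 (95% Clopper-Pearson interval 87.5% to 88.7%) and 90.9% in replicate 2 (90.3% to 91.5%). As TPM the ratio of PLAU to PLAUR was 11.2 and 15.1 with the union of exons and 4.33 and 5.84 with canonical transcripts. Of the activators PLAU exceeded PLAT by a TPM ratio of 3.63 and 4.39 with the union and of 1.80 and 2.18 with canonical transcripts. The order of ligand over receptor and of urokinase over tissue activator was the same in both libraries on both scales, while its size rested on the length used.

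Tissue factor, encoded by F3, starts the extrinsic pathway of clotting, and TFPI and TFPI2 are Kunitz-type inhibitors, TFPI of the tissue factor complex and TFPI2 mainly of plasmin and trypsin. All 3 genes were expressed, and per length, with the union of exons, TFPI2 stood at 248 and 193 TPM, F3 at 127 and 186 TPM and TFPI at 39.5 and 42.1 TPM. With canonical transcripts TFPI2 stood at 141 and 114 TPM, F3 at 81.7 and 124 TPM and TFPI at 61.6 and 68.0 TPM, so that in replicate 2 F3 lay above TFPI2 on this scale and below it on the other. F3 (chr1:94994729-95007315) was covered by 2046 and 2075 counts, or 88.8 and 115 CPM, and was higher in replicate 2 (log2 difference 0.38, adjusted p = 3.00e-16 in the exact binomial test of edgeR). TFPI2 (chr7:93514708-93520065) went the other way with 3390 and 1826 counts, or 147 and 102 CPM (log2 difference −0.54, adjusted p = 2.46e-37 in the same exact test of edgeR). TFPI (chr2:188328957-188430487) was covered by 2589 and 1910 counts, 112 and 106 CPM, and was not called (adjusted p = 0.10, exact binomial test of edgeR). It was called higher in replicate 1 with either length trend taken out, by a log2 difference of −0.42 with the union of exons (adjusted p = 2.10e-21, exact binomial test) and of −0.18 with canonical length (adjusted p = 0.000155). Counts of both inhibitors together were 2.92 times those of F3 in replicate 1 and 1.80 times in replicate 2, and as TPM the ratios were 2.27 and 1.27 with the union of exons and 2.48 and 1.46 with canonical transcripts. TFPI alone lay below F3 in TPM in both libraries on both scales, while its counts exceeded those of F3 in replicate 1 only.

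The 8 clade B serpins grouped here as intracellular inhibitors fell into 5 genes averaging 20 counts or more and 3 close to or at 0. Over the whole of clade B, 7 of 13 genes averaged 20 counts or more. SERPINB6 (chr6:2948393-2972399), which inhibits trypsin-like proteases and cathepsin G, was covered by 3935 and 2795 counts, or 163 ± 10.9 CPM (SD, n = 2). SERPINB1 (chr6:2832566-2842193), which inhibits neutrophil proteases, was covered by 1934 and 1175 counts, or 74.6 ± 13.2 CPM (SD, n = 2). SERPINB8 (chr18:61637263-61687013), an inhibitor of furin, was covered by 858 and 783 counts, or 40.4 ± 4.46 CPM (SD, n = 2), and was higher in replicate 2 (log2 difference 0.23, adjusted p = 0.00345 in the exact binomial test of edgeR). Between SERPINB1 and SERPINB6 on chromosome 6 lies SERPINB9, whose product protects cells from granzyme B, and it had no count in either library. SERPINB10 likewise had none, and SERPINB13 had 7 and 3 counts. Of 11 proteases listed as serpin targets, 5 averaged 20 counts or more, against 52.8% of all symbols. FURIN had 112 ± 7.23 CPM (SD, n = 2) and CTSL1, the gene of cathepsin L, 207 ± 56.9 CPM (SD, n = 2). GZMB and CTSG had 0 counts, ELANE had 1 in each library and PRTN3 had 2 and 1.

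SERPINB3 and SERPINB4, the squamous cell carcinoma antigens, showed the largest differences between the libraries of the 18 genes averaging 20 counts or more, except that with the union length trend taken out SERPINA1, at −1.01 on the log2 scale, passed SERPINB3 at −0.98. SERPINB3 (chr18:61322431-61329127) was covered by 720 and 220 counts, or 31.2 and 12.2 CPM. SERPINB4 (chr18:61304493-61311490) was covered by 388 and 73 counts, or 16.8 and 4.06 CPM. Both were higher in replicate 1 in the exact binomial test of edgeR, with log2 differences of −1.35 (adjusted p = 8.90e-38) and −2.05 (adjusted p = 1.56e-36), and both kept this direction and call with either length trend taken out, at −0.98 and −1.72 with the union of exons and −1.09 and −1.79 with canonical length. The ratio of SERPINB3 to SERPINB4 counts was 1.86 (95% Clopper-Pearson limits 1.64 and 2.10) in replicate 1 and 3.01 (2.30 and 3.98) in replicate 2. The genes are near copies of each other. Their coding sequences are equal at 1114 of 1170 bases, 95.2%, whereas SERPINB6 and SERPINB8, the next most alike of the 12 expressed serpins, reach 71.8%. The stretch over the reactive-centre loop differs at 12 of 117 bases, which stand in capitals here because they are the bases by which reads of this stretch can be told apart.
SERPINB3: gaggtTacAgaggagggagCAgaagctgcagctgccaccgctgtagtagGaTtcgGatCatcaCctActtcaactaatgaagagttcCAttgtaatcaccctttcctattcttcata
SERPINB4: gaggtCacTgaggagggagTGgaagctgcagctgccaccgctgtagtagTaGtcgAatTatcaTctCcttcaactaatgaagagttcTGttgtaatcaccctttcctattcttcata
Of the 1608 windows of 100 bases, the length of the reads, in the canonical transcript of each gene, 57 or 3.54% are identical in the other. A further 522 windows of SERPINB3, 32.5%, lie in exons of SERPINB11 on the opposite strand, which had 0 counts. The windows that SERPINB3 and SERPINB4 share leave both values uncertain to that extent, since the treatment of reads with several matches was not stated. The overlap with SERPINB11 concerns SERPINB3 and not SERPINB4, and it rests on the strand setting, which was not stated either.

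**Figure D3:**
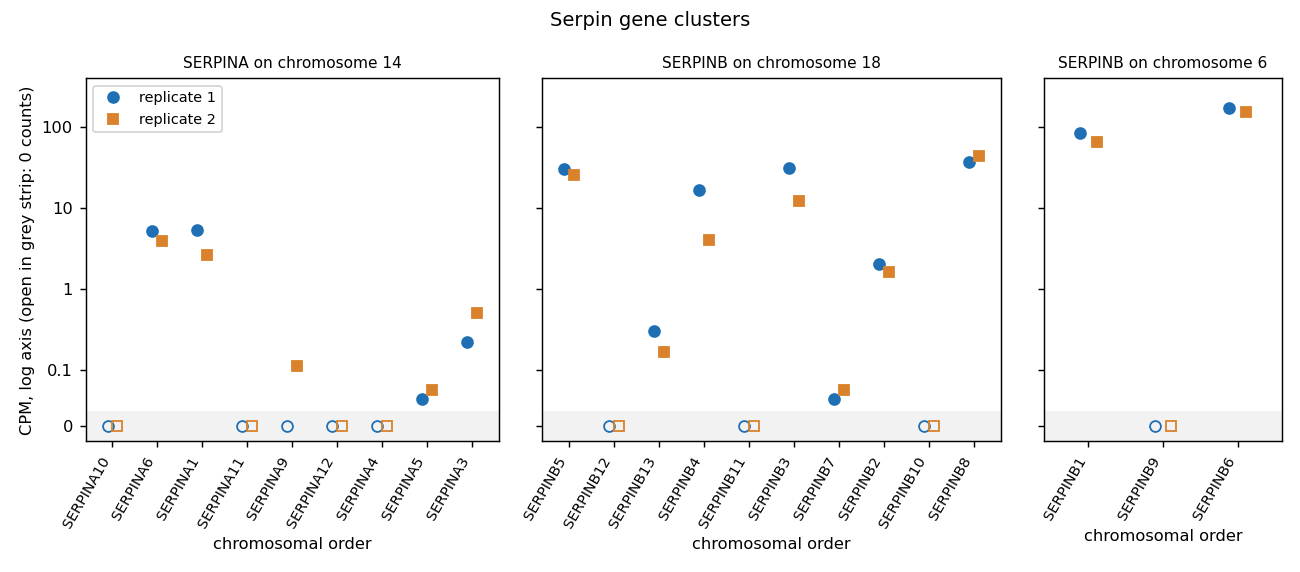
CPM on a log axis of the serpins of 3 gene clusters in chromosomal order, circles for replicate 1, squares for replicate 2 and open symbols in the grey strip for 0 counts. Expressed genes lie among genes without counts, with SERPINB9 at 0 between SERPINB1 and SERPINB6. Genes are ordered by start, so that SERPINB11, at 0, is drawn between SERPINB4 and SERPINB3 although its span contains SERPINB3.

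The clade B cluster at chr18:61144191-61687013 holds 10 of the genes, of which 5 averaged 20 counts or more, namely SERPINB5, SERPINB4, SERPINB3, SERPINB2 and SERPINB8, and 4 had at most 3 counts in each library. The clade A cluster at chr14:94746797-95090392 holds 9, of which 2 averaged 20 counts or more and 6 had at most 3 counts in each library. SERPINA13, with 0 counts, was not matched to the annotation and could not be placed. The expressed members there are the neighbours SERPINA6, the gene of the cortisol carrier corticosteroid-binding globulin, with 118 and 70 counts, and SERPINA1, the gene of α1-antitrypsin, with 122 and 47 counts. SERPINA1 had 5.29 and 2.61 CPM and was higher in replicate 1 (log2 difference −1.02, adjusted p = 6.72e-05 in the exact binomial test of edgeR), whereas SERPINA6 with 5.12 and 3.89 CPM was not called (adjusted p = 0.122, exact binomial test of edgeR).

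Of the 8 genes grouped here as secreted inhibitors outside the plasminogen system, only SERPINA1 averaged 20 counts or more. SERPINA3, the gene of α1-antichymotrypsin, had 5 and 9 counts, all of whose transcript windows an unnamed annotated gene shares, and SERPINI1, which encodes neuroserpin, 6 and 4. SERPING1, the gene of the C1 inhibitor, had 0 counts and 1 count, although the genes of its target proteases C1R and C1S had 289 ± 56.8 and 160 ± 26.0 CPM (SD, n = 2 each). SERPIND1, the gene of heparin cofactor II, also had 0 and 1, and SERPINC1, the gene of antithrombin, SERPINA10 and SERPINA4 had none. The 9 remaining serpins, among them SERPINA9, SERPINA12, SERPINB7, SERPINB12 and SERPINE3, were not sorted by role, whether inhibitors or not. All had at most 3 counts in each library.

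Among the serpins with roles other than inhibition, SERPINH1 stood out. It encodes HSP47, the chaperone that binds procollagen in the endoplasmic reticulum. The gene (chr11:75273101-75283828) gave 9575 and 5670 counts, or 416 and 315 CPM, rank 411 of all symbols, and was higher in replicate 1 (log2 difference −0.40, adjusted p = 5.46e-60 in the exact binomial test of edgeR). All 7 collagen genes listed as its clients averaged 20 counts or more, led by COL5A1 with 1042 ± 349 CPM and COL1A1 with 360 ± 96.4 CPM (SD, n = 2 each). COL5A1 and COL1A1 were called higher in replicate 2, with log2 differences of 0.70 and 0.55, opposite to SERPINH1, and remained so with the canonical length trend taken out, at 0.17 and 0.22. Of the 7 clients 5 were called higher in replicate 2, against 30.1% of all genes tested. COL3A1 and COL1A2, the latter with only 84 and 53 counts, were not called. With either length trend taken out 4 were called higher in replicate 2, and COL4A2 no longer was. Its adjusted p was 0.387 with the union of exons and 0.0958 with canonical length (exact binomial test). With the union trend taken out, COL1A2 was called higher in replicate 1 (log2 difference −0.62, adjusted p = 0.0273, exact binomial test). SERPINB5, the gene of maspin, an epithelial protein, stood at 27.7 ± 3.51 CPM (SD, n = 2) from 696 and 454 counts, and its higher level in replicate 1 (adjusted p = 0.00617, exact binomial test of edgeR) was no longer called with either length trend taken out (adjusted p = 0.170 with the union of exons and 0.120 with canonical length). SERPINF1, the gene of the factor PEDF, had 5 and 2 counts and SERPINA7, a carrier of thyroid hormone, had none.

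Ordered per length by the union of exons, PLAU at 664 ± 52.5 TPM came before SERPINH1 at 253 ± 27.7 TPM and TFPI2 at 220 ± 38.7 TPM (SD, n = 2 each). The order ended with SERPINA6 at 10.6 ± 1.15 TPM, SERPINA1 at 3.46 ± 1.39 TPM and SERPINB2 at 2.90 ± 0.233 TPM (SD, n = 2 each). Neighbours in the order were told apart where both libraries of the higher gene lay above both of the lower. PLAU and SERPINH1 were told apart, SERPINH1 and TFPI2 were not, PLAT and F3 were not, and from SERPINE2 through SERPINB3 and SERPINB6 to PLAUR no neighbour was. With canonical transcripts PLAU, SERPINH1 and SERPINB6 followed each other at 438 ± 45.2, 403 ± 34.4 and 283 ± 12.2 TPM (SD, n = 2 each), and PLAU and SERPINH1 overlapped. SERPINB6 moved from below SERPINB3 to just below SERPINH1, since the annotation gives its exons a union of 13201 bases and its canonical transcript 1315. The last 3 places were the same on both scales.

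Summed counts reached 10 for 21 of the 42 genes, of which 14 were called different between replicates 1 and 2 (exact binomial test of edgeR), against 57.7% of the 13744 genes tested. Of these 3, F3 and SERPINB8 among them, were higher in replicate 2, against 30.1% of genes tested, and 11 in replicate 1, against 27.6%. The libraries differed by transcript length, with longer genes higher in replicate 2: across 12992 genes Spearman's rho between the log2 difference and the length of the canonical transcript was 0.625, and across the 18 genes averaging 20 counts or more it was 0.498. With the union of exons as length, rho was lower, at 0.513 and 0.397. Genes of a library share its depth and preparation and are not independent replicates. With a smooth trend on the union of exons taken out, 11 of the 21 were called higher in replicate 1, against 25.7% of 13000 genes and 52.2% called in all, and 4 in replicate 2, against 26.5%. With a trend on canonical length taken out instead, 13 of the 21 were called, against 46.2% of 13000 genes, 8 of them higher in replicate 1, against 22.1%, and 5 in replicate 2, against 24.2%. SERPINB6 changed direction with the canonical trend, from −0.14 to 0.20 on the log2 scale, and stood at −0.51 with the union trend. PLAU, at −0.01 before, was called higher in replicate 2 with both, at 0.13 with the canonical trend (adjusted p = 1.08e-08, exact binomial test with the trend as offset) and 0.19 with the union trend. SERPINE2 was no longer called with the canonical trend (−0.03, adjusted p = 0.618, exact binomial test), but with the union trend its difference grew from −0.19 to −0.43 (adjusted p = 1.09e-26). With the canonical trend F3 and SERPINB8 stayed higher in replicate 2, at 0.53 and 0.21, and SERPINB3, SERPINB4, SERPINA1, TFPI2, PLAT, SERPINH1 and SERPINB1 stayed higher in replicate 1.

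**Figure D4:**
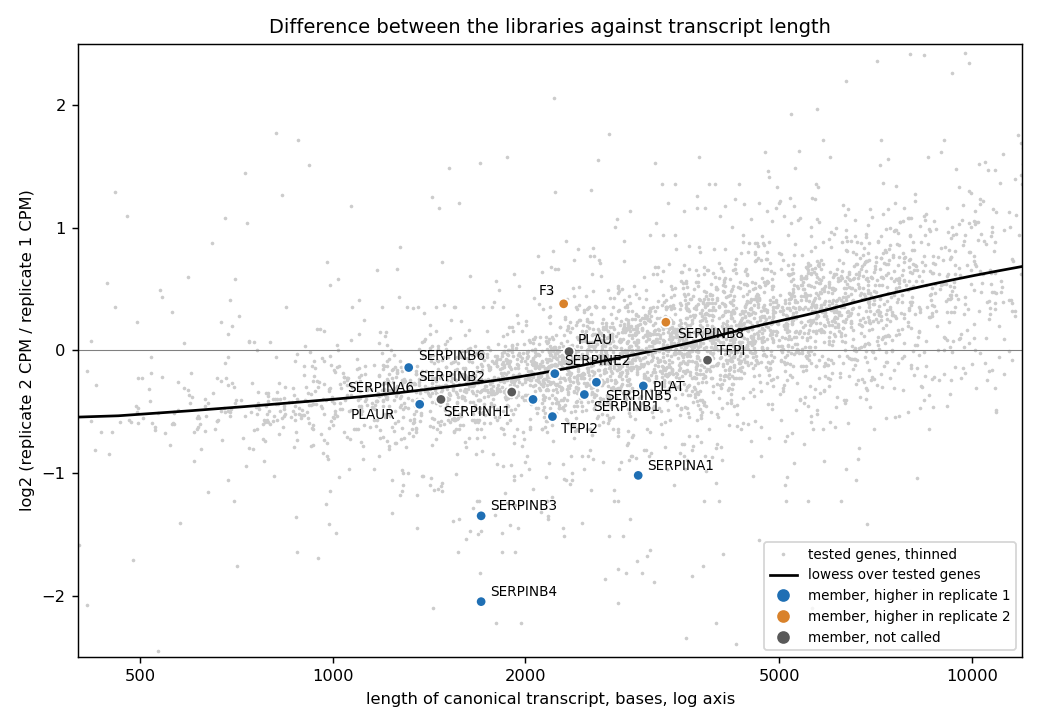
Log2 ratio of replicate 2 to replicate 1 CPM against the length of the canonical transcript on a log axis; grey points are an evenly thinned set of tested genes within the axes, the line is the smooth trend over tested genes, and coloured points are the genes described here that averaged 20 counts or more. The line rises with length, F3 lies above it at 0.38, and SERPINB3 at −1.35 and SERPINB4 at −2.05 lie far below it.

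Other genes of the pathway were taken from lists of surface partners, proteases, clotting factors, inhibitors, serpin targets and collagens. Of these 62 genes, 44 averaged 20 counts or more, again against 52.8% of all symbols, and of the 46 that were tested between the libraries 20 were higher in replicate 1, against 27.6% of all genes tested, and 16 in replicate 2, against 30.1%. All 12 surface partners reached that count. ENO1 and ANXA2, whose products bind plasminogen at the cell surface, had 3167 ± 390 and 1384 ± 211 CPM, S100A10, the partner of annexin A2, had 207 ± 70.3 CPM, and C9orf46, the plasminogen receptor PLGRKT, had 12.8 ± 0.360 CPM (SD, n = 2 each). LRP1, an endocytic receptor, had 61.0 and 106 CPM, and ITGB1, an integrin chain, 646 and 992 CPM. VTN, the gene of the adhesion protein vitronectin, was at the low end with 70 and 27 counts.

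Most listed receptors of the clotting proteases were well expressed, while F2, F7, F10 and PROC were at or close to 0. F2R, which encodes the thrombin receptor PAR1, had 606 ± 46.7 CPM, F2RL2, its relative PAR3, 422 ± 17.4 CPM, and F2RL1, the receptor PAR2, 119.5 ± 10.97 CPM (SD, n = 2 each). F2RL3, the receptor PAR4, had only 12 and 36 counts and was higher in replicate 2 (log2 difference 1.94, adjusted p = 4.19e-05 in the exact binomial test of edgeR). THBD and PROCR, receptors of the anticoagulant protein C pathway, had 82.9 ± 17.9 and 74.8 ± 10.1 CPM (SD, n = 2 each). F2 and F7, the genes of prothrombin and factor VII, had 0 counts, and F10 and PROC had at most 1 count in each library. PROS1 of the same list was expressed, with 341 and 342 counts, as was F12, listed with the proteases, with 335 and 185. Of matrix proteases that plasmin can activate or that act beside it, MMP2 had 411 ± 36.5 CPM (SD, n = 2), MMP1 190 and 65 counts, MMP14 74 and 52, MMP3 20 and 22, and MMP9 0. Of the other protease inhibitors, TIMP3 had 2037 ± 79.8, TIMP1 451 ± 101 and TIMP2 334.6 ± 17.97 CPM (SD, n = 2 each). A2M, the gene of the general inhibitor α2-macroglobulin, had 0 counts and 1 count.

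Markers of cell types known to make serpins were set beside these values. Of 4 liver markers none averaged 20 counts or more, and of 3 endothelial markers 1 did, PECAM1 with 24 and 20 counts, while VWF had 0. Of the leukocyte markers PTPRC had 48 and 31 counts, CD14 356 and 137, and CD3E 0, and of the platelet markers ITGA2B had 36 and 24 and PF4 0. The luminal epithelial markers EPCAM and CDH1 had 6 and 6 and 9 and 13 counts and GATA3 86 and 58, whereas the mesenchymal VIM, FN1 and SPARC had 7542 ± 873, 3564 ± 2173 and 2080 ± 129 CPM (SD, n = 2 each). CD14 differed between the libraries in the direction of SERPINB3, SERPINB4 and SERPINA1, with a log2 difference of −1.02 (adjusted p = 1.26e-12, exact binomial test of edgeR), and its part in those differences was not tested.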

How the data were processed

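Bulk RNA-seq was examined in 2 libraries of doxorubicin-resistant SUM159 cells. Each library came as 1 file of raw read counts by gene symbol, deposited by the authors and made by mapping to hg19 with HISAT2 and counting with HTSeq within Galaxy, per the paper and the submitters' processing notes, which also list FastQC and deepTools. The sources used here give no versions, gene annotation, strand setting or handling of reads with several matches. The totals of 23044084 and 17985508 counts set the precision.

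CPM were computed from these totals. Coordinates, lengths and coding sequences come from GENCODE on GRCh37, to which 21164 symbols were matched, 90.6%, among them 1851 through RefSeq synonyms; 41 of the 42 genes were matched, SERPINA13 not. TPM used the union of exons and, chosen after seeing the data, the canonical transcript. The libraries were compared by edgeR's exact binomial test, adjusted after Benjamini and Hochberg over the 13744 genes with at least 10 counts, called at 0.05, and again with a lowess trend on length as offset in the exact binomial test of scipy. Both were tested on simulated data. The libraries differed beyond counting error (chi-square 944379 on 13743 degrees of freedom) and were not merged.

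Members and lists were chosen with earlier results of these data known. A single gene is not reported here and enters only counts and sums over all 42. The other genes were accounted for, with values for those with a mean count of at least 20 and for the plasminogen system, and others by count and range. Alternatives changed the length, the scaling, the minimum count or the filter, or left out a library. A comparison of protein sequences was planned and not made here, and coding sequences were used in its place. Tools were R 4.3.3 (DESeq2 1.42.0, edgeR 4.0.16) and Python 3.11.15 (Biopython 1.88, statsmodels 0.14.6, scipy 1.17.1, matplotlib 3.10.9, pandas 2.3.3, numpy 2.4.6).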

Additional observations from a re-analysis of the deposited data

How the results depend on the processing

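The number of genes with a mean count of at least 20 was 18 at a minimum of 10 and in either library alone, and 17 at a minimum of 50. The median over all 42 genes lay between 0.139 and 0.217 CPM with a library left out. Scaling by TMM or by DESeq2 size factors moved the level of no expressed gene by more than 0.924%, which for PLAU, at 444 CPM with size factors, exceeded its small spread. Between the libraries 14 of the genes were called with TMM or without a filter, and 15 with a length trend on the union of exons taken out. Under that trend the difference of PLAU turned to 0.19 on the log2 scale, and under the trend on canonical length to 0.13, and that of SERPINB6 turned to 0.20 under the latter alone. The order per length kept 8 of 18 places with canonical or with longest transcripts, 11 with replicate 1 alone and 6 with replicate 2 alone. No paired analysis was possible because the libraries belong to 1 group. Depth limits the statements on genes with 3 counts or fewer.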
